A study of Homo sapiens with 16 samples.

Results

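TGFb was compared with no added ligand in cells that also received 2-deoxyglucose (2DG). The comparison rests on 4 of the 16 libraries of the series, chosen by their labels: 2 of E7+TGFb+2DG and 2 of E7+2DG. All cells were of H1, a wild-type, pluripotent line of human embryonic origin that is widely used, kept in E8 medium and then held for 24 h in E7, which is E8 medium lacking TGFb. E7+TGFb+2DG had TGFb at 1.74 ng/mL and 2DG at 3 mM, and E7+2DG had the same 2DG and no TGFb, so both groups were under glycolysis inhibition. The groups E7+TGFb and E7, 2 libraries each and without 2DG, and the groups E7+Activin A+2DG and E7+NODAL+2DG, with 100 ng/mL of ligand, were used beside them. H1 is a single line, and the labels do not say whether the 2 libraries of a group came from separate cultures. The p-values then reflect only how far replicate libraries spread, pooled over all 16 libraries of the series, and this spread may be technical.

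TGFb binds the receptor kinases TGFBR2 and TGFBR1, which phosphorylate SMAD2 and SMAD3. These join SMAD4 in the nucleus and switch on target genes, among them brakes of the same pathway such as SMAD7, SKIL and PMEPA1. Activin A and NODAL reach the same SMADs through other receptors, ACVR1B with ACVR2A or ACVR2B, and in human pluripotent cells this branch sustains NANOG and the feedback inhibitors LEFTY1 and LEFTY2. 2DG is a glucose analog that is phosphorylated by hexokinase and then held up in glycolysis. It also disturbs protein glycosylation, and cells answer it with the glucose sensor target TXNIP, with ATF4 targets such as DDIT3, and with chaperones of the endoplasmic reticulum (ER).

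TGFb changed no gene past the threshold in 2DG-treated cells. Of 16714 genes tested, of 17738 in the table, 0 were called higher and 0 lower by limma (adjusted p under 0.05), which is 0% of the genes. Every adjusted p was at least 0.999998. At an unadjusted p under 0.05 there were 273 genes, 126 higher (0.754%) and 147 lower (0.88%), together 1.63% of those tested. edgeR's quasi-likelihood test on the recovered reads gave 0 calls and 254 genes below 0.05 before adjustment, and DESeq2 gave 0 calls and 102 such genes. Leaving out the 4 Activin A libraries, whose replicates differed most in the series, also gave 0 calls, with 525 genes (3.14%) at an unadjusted p under 0.05. Both limma shares, 1.63% and 3.14%, lie below what a threshold of 0.05 gives by design when no gene changes. The p-values may therefore be too large here, and 0 calls do not show that TGFb changed nothing.

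The same fit made calls against the same E7+2DG libraries for other ligands. It called 713 genes higher and 544 lower in E7+Activin A+2DG (7.52% of the genes), and 71 higher and 35 lower in E7+NODAL+2DG (0.634%). These comparisons share their E7+2DG libraries with the TGFb comparison, and the doses differed, 100 ng/mL for Activin A and NODAL and 1.74 ng/mL for TGFb, so they are given side by side only.

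**Figure D1:**
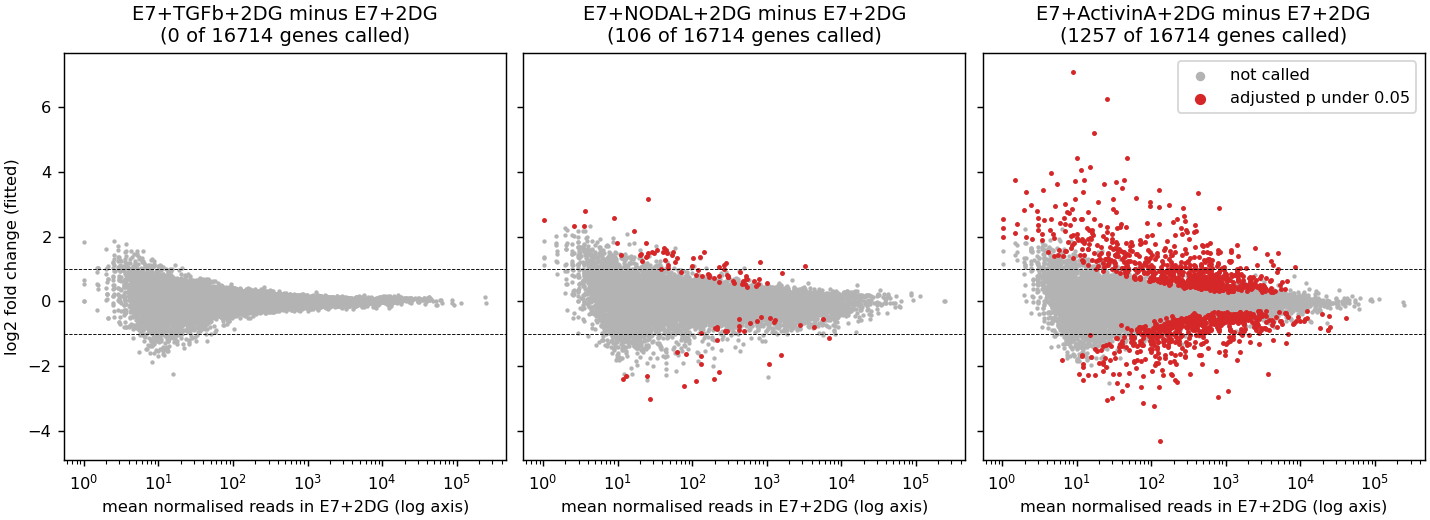
Fitted log2 fold change of every tested gene (vertical axis) against its mean normalised reads in E7+2DG (horizontal log axis), for TGFb, NODAL and Activin A added to 2DG-treated cells, with called genes in red and dashed lines at log2 fold changes of -1 and 1. The TGFb panel holds 0 called genes, and its spread narrows towards 0 as the read level grows.

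The size of the changes was bounded as follows. The middle 50% of genes had log2 fold changes between -0.09 and 0.08. A log2 fold change beyond -1 or 1 was seen in 198 genes, whose median level in the higher group was 11.5 normalised reads, and in 0 of the 10794 genes with at least 100 reads in the higher group. Of those 10794 genes, 99.4% had a 95% interval of the log2 fold change lying wholly between -1 and 1, and 76.8% one lying between -0.5 and 0.5. Without the Activin A libraries the second share was 92.2%. Over all tested genes, including those with few reads, the shares were 78.5% and 50.5%, so for genes with low counts even a log2 change of 1 was often not detectable at this depth.

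Single libraries of the groups were also set against each other. The reads of E7+TGFb+2DG replicate 1 differed from those of E7+2DG replicate 2 by a chi-square per degree of freedom of 1.98, that is 1.98 times what counting error alone gives, and those of E7+TGFb+2DG replicate 2 by 2.11 times. The 2 libraries of E7+TGFb+2DG differed from each other by 1.98 times, and the 2 of E7+2DG by 5.03 times. E7+2DG replicate 1 stood apart from the other 3 libraries, with 3.87 and 4.96 times against replicates 1 and 2 of E7+TGFb+2DG. Leaving it out of the fit gave 0 calls and 279 genes below 0.05 before adjustment by limma. No pair between the groups differed by more than the E7+2DG replicates did. Libraries with Activin A or NODAL lay at 10.5 to 28.4 times from those of E7+2DG. The values are the deposited reads of each gene divided by a library size factor, called normalised reads here, and fold changes are on the log2(value + 1) scale, which understates the change of low genes. Recovered reads were 16447859 and 14967998 in E7+TGFb+2DG and 16850731 and 14899899 in E7+2DG. Genes of the mitochondrial genome, named MT-, held 5.55 and 5.5% of reads in E7+TGFb+2DG and 5.65 and 5.88% in E7+2DG.

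**Figure D2:**
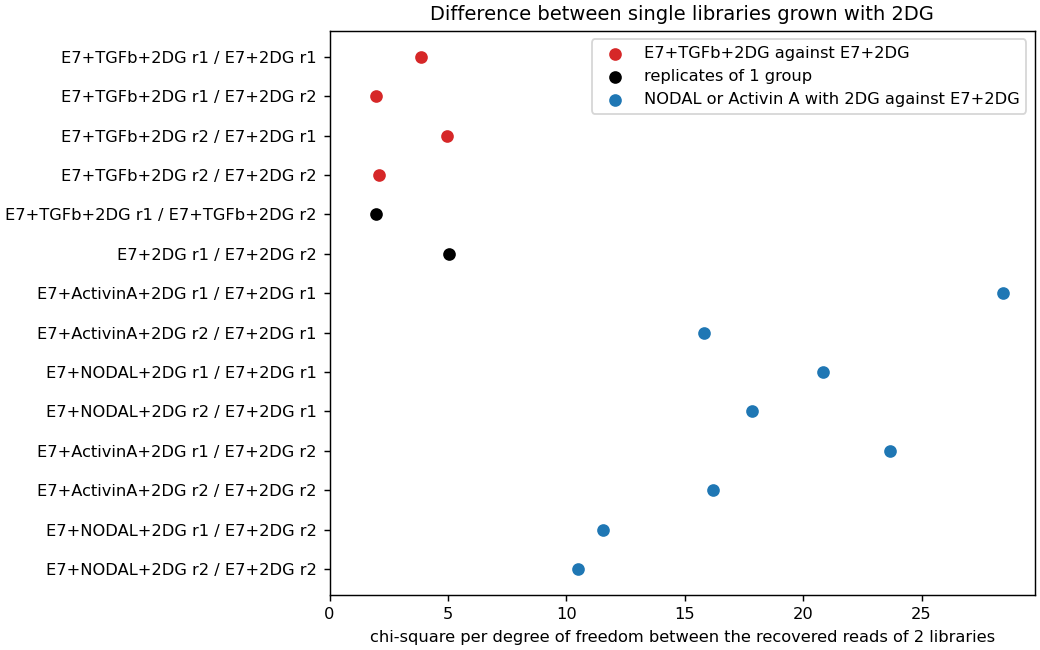
Chi-square per degree of freedom between the recovered reads of 2 libraries (horizontal axis, from 0) for pairs of single libraries grown with 2DG (r1 and r2 are the replicates). The 4 pairs of E7+TGFb+2DG against E7+2DG lie between 1.98 and 4.96, no farther apart than the E7+2DG replicates at 5.03.

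The labelled cell type was checked on defining markers. The pluripotency genes POU5F1, SOX2, NANOG, LIN28A and TDGF1 had between 3699.7 and 45195 normalised reads in the 4 libraries. Of the endoderm markers 4 of 8 were in the table, with summed levels of 47.1 and 60.9 normalised reads in E7+TGFb+2DG and 59.8 and 67.4 in E7+2DG. Fibroblast and stromal markers, 6 of 10 in the table, summed to 3742 and 3549 normalised reads in E7+TGFb+2DG and 3730.0 and 3604 in E7+2DG, most of it THY1, which stem cells also express. The trophoblast and amnion markers (3 of 11 in the table, mostly the keratin KRT18) summed to 4177 and 4129 normalised reads in E7+TGFb+2DG and 4101 and 4308 in E7+2DG. The endothelial and blood markers (2 of 9, mostly the receptor KDR) summed to 2551 and 2527 normalised reads in E7+TGFb+2DG and 2729 and 2522 in E7+2DG. In each of these 4 marker lists the summed levels of the groups overlapped. In bulk samples fewer cells of a type and less RNA per cell cannot be told apart.

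Ligands and receptors of the pathway were present in both groups. TGFB1, the ligand gene for the added factor, had 72.5 and 83.8 normalised reads in E7+TGFb+2DG, against 97.7 and 88.1 in E7+2DG. The groups did not overlap, and the log2 fold change of -0.25 (95% interval -0.66 to 0.16) was not called. TGFBR2, which binds TGFb, had 203 and 190.4 normalised reads in E7+TGFb+2DG, against 211 and 200.1 in E7+2DG, and TGFBR1, its signalling partner, had 1636 and 1727 normalised reads in E7+TGFb+2DG, against 1699 and 1592 in E7+2DG. For both receptors the groups overlapped, with log2 fold changes of -0.06 (-0.45 to 0.33) and 0.03 (-0.20 to 0.26). Levels per kilobase of exon can be set against each other. TGFBR2 averaged 41.8 reads per kb in E7+TGFb+2DG and 43.7 in E7+2DG, TGFBR1 246 reads per kb in E7+TGFb+2DG and 240.5 in E7+2DG, and the co-receptor TGFBR3 25.6 reads per kb in E7+TGFb+2DG and 22.6 in E7+2DG. Of the Activin and NODAL receptors, ACVR1B averaged 142 reads per kb in E7+TGFb+2DG and 139 in E7+2DG, and ACVR2B 186 reads per kb in E7+TGFb+2DG and 204 in E7+2DG. TDGF1, the NODAL co-receptor also called CRIPTO, stood far above these at 4084 reads per kb in E7+TGFb+2DG and 4058 in E7+2DG. In the fit, 0 of 16 ligand and carrier genes were called, with a median log2 fold change of 0.0065, and 0 of 15 receptor, co-receptor and SMAD genes, with a median of -0.01. The median over all genes was 0.00066. LTBP2, a matrix protein named for its family of latent TGFb binding proteins, had 27.4 and 20.7 normalised reads in E7+TGFb+2DG, against 41.8 and 39.1 in E7+2DG. It did not overlap between the groups and had the lowest log2 fold change of its list, -0.74 (limma unadjusted p = 0.0055).

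The SMADs and the brakes of the pathway showed no called change. SMAD3 had 753 and 745 normalised reads in E7+TGFb+2DG, against 810.3 and 766 in E7+2DG (log2 fold change -0.07, 95% interval -0.38 to 0.23), lower in both TGFb libraries than in either library without it. SMAD2 had -0.03 (-0.20 to 0.14) and SMAD4 -0.02 (-0.24 to 0.19). SMAD7, the inhibitory SMAD that SMAD3 itself induces, had 573 and 596 normalised reads in E7+TGFb+2DG, against 586 and 684 in E7+2DG, and these overlapped. PMEPA1, which keeps SMAD2 and SMAD3 from the receptor, had 486 and 479 normalised reads in E7+TGFb+2DG, against 497 and 622 in E7+2DG. SKIL, a co-repressor of SMAD target genes, had 4712 and 4709 normalised reads in E7+TGFb+2DG, against 5823 and 4887 in E7+2DG. For PMEPA1 and SKIL both TGFb libraries lay below both others, with log2 fold changes of -0.20 (-0.43 to 0.02) and -0.18 (-0.43 to 0.07). Without the Activin A libraries their intervals were -0.40 to -0.01 and -0.34 to -0.02 (limma unadjusted p = 0.040 and 0.029), and neither was called. Of the 16 tested inhibitors, 3 had both E7+TGFb+2DG libraries above both E7+2DG libraries and 4 had both below, against 15.3% and 14.4% of all tested genes. For SMAD7, PMEPA1 and SKIL the upper ends of the intervals with all 16 libraries were 0.12, 0.02 and 0.07 on the log2 scale.

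LEFTY1 and LEFTY2 are secreted inhibitors of NODAL and known feedback targets of this branch. The 2 genes are near-identical copies, so the split of reads between them is uncertain. LEFTY1 had 22.5 and 19.6 normalised reads in E7+TGFb+2DG, against 20.9 and 30.4 in E7+2DG, and LEFTY2 had 4.90 and 6.53 normalised reads in E7+TGFb+2DG, against 4.74 and 13.0 in E7+2DG. Both had few reads in either group, and the groups overlapped. Without 2DG they had more reads, LEFTY1 446 and 463 in E7+TGFb and 463 and 613 in E7, and LEFTY2 102 and 126 in E7+TGFb and 148 and 114 in E7. In the same fit LEFTY1 rose with Activin A under 2DG to 2643 and 1484 (log2 6.24, limma adjusted p = 2.5e-08) and with NODAL to 237 and 232 (log2 3.17, limma adjusted p = 5.3e-05). The log2 fold change with TGFb was -0.25 (-0.82 to 0.31) for LEFTY1 and -0.43 (-1.19 to 0.33) for LEFTY2. NODAL itself had 246 and 177 normalised reads in E7+TGFb+2DG, against 244 and 291 in E7+2DG, with a log2 fold change of -0.35 (95% interval -0.74 to 0.04) and overlapping groups. Beside this stood 2049 and 1885 with Activin A and 581 and 574 with NODAL under 2DG (log2 2.88, limma adjusted p = 2.7e-07 and log2 1.11, limma adjusted p = 0.014). Without the Activin A libraries, the interval of the NODAL gene with TGFb was -0.61 to -0.09 (limma unadjusted p = 0.011), and it was not called.

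PMEPA1, SMAD7 and LDLRAD4, an inhibitor that binds SMAD2 and SMAD3, rose with Activin A under 2DG. PMEPA1 had 1884 and 1823 reads there (log2 1.73, limma adjusted p = 1.6e-07), SMAD7 1486 and 1328 (log2 1.15, limma adjusted p = 1.3e-05) and LDLRAD4 466 and 456 (log2 3.49, limma adjusted p = 3.0e-07). With TGFb, LDLRAD4 had 51.0 and 47.9 normalised reads in E7+TGFb+2DG, against 37.0 and 43.5 in E7+2DG. Both TGFb libraries lay above both others, and the log2 fold change of 0.29 (95% interval -0.19 to 0.78) was not called.

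**Figure D3:**
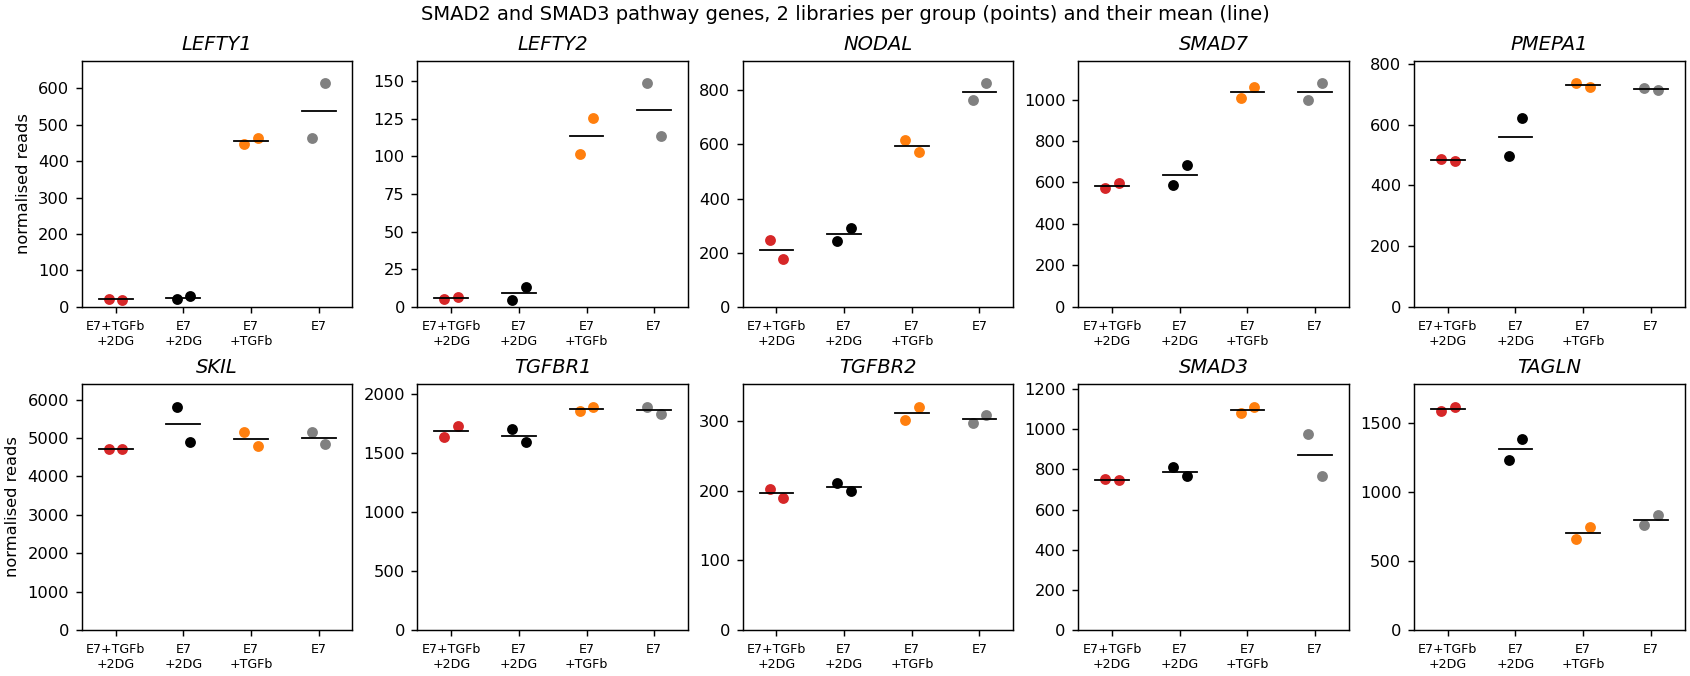
Normalised reads (vertical axes, each from 0) of 10 genes of the SMAD2 and SMAD3 pathway in the 2 libraries of E7+TGFb+2DG, E7+2DG, E7+TGFb and E7, with the group mean as a line. LEFTY1, LEFTY2 and NODAL are low in both groups with 2DG, and no gene shown was called between E7+TGFb+2DG and E7+2DG.

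Genes that TGFb is known to induce in epithelial cells and fibroblasts were measured next. TAGLN, an actin-binding protein of contractile cells, had 1589 and 1621 normalised reads in E7+TGFb+2DG, against 1233 and 1389 in E7+2DG. Both TGFb libraries were higher, with a log2 fold change of 0.29 (95% interval -0.24 to 0.83), not called (limma unadjusted p = 0.26, and 0.0071 without the Activin A libraries, adjusted p = 1.00). JUNB, an immediate-early transcription factor, had 52.0 and 37.0 normalised reads in E7+TGFb+2DG, against 29.4 and 34.8 in E7+2DG, also without overlap and not called (log2 0.44). The secreted factor CTGF had 0.10 (-0.55 to 0.75), the matrix protein FN1 -0.07 (-0.66 to 0.52) and the collagen COL1A1 0.06 (-0.21 to 0.34) on the log2 scale. Of 24 tested members 0 were called and the median was 0.01. In this list, 4 of 24 tested members had both E7+TGFb+2DG libraries above both E7+2DG libraries and 1 had both below, against 15.3% and 14.4% of all tested genes.

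Mesendoderm genes were mostly low, and BMP target genes ranged from few reads to many. Of 13 tested mesendoderm and NODAL response genes 0 were called, with a median of -0.0061, which was 0.19 without E7+TGFb+2DG replicate 1 and -0.18 without E7+TGFb+2DG replicate 2 or E7+2DG replicate 2. EOMES, a mesendoderm regulator, had 11.8 and 7.61 normalised reads in E7+TGFb+2DG, against 3.80 and 3.26 in E7+2DG, without overlap, a log2 fold change of 1.21 (0.35 to 2.07, limma unadjusted p = 0.0091) on few reads. WNT3, a primitive streak ligand, had 52.9 and 60.9 normalised reads in E7+TGFb+2DG, against 87.3 and 88.1 in E7+2DG, without overlap (log2 -0.62, -0.92 to -0.31, limma unadjusted p = 6.6e-04, adjusted p = 1.00). EOMES and WNT3 lay on opposite sides of 0. Under 2DG, Activin A raised both, EOMES by 3.43 and WNT3 by 2.42 on the log2 scale (limma adjusted p = 8.0e-05 and 1.4e-07). MIXL1 and FGF8 had -0.09 (-0.53 to 0.35) and 0.02 (-0.42 to 0.46) with TGFb. GATA3, a BMP target and trophoblast regulator, had 1.96 and 1.09 normalised reads in E7+TGFb+2DG, against 7.59 and 8.70 in E7+2DG, at which level no fold is given (limma unadjusted p = 4.2e-04). ID1, the best-known BMP target, had 1009 and 983 normalised reads in E7+TGFb+2DG, against 944 and 1089.6 in E7+2DG, and these overlapped. Of 9 tested BMP targets 0 were called, with a median of 0.08, which was -0.07 without E7+2DG replicate 1 and -0.03 without E7+TGFb+2DG replicate 1. In this list 0 had both E7+TGFb+2DG libraries above both E7+2DG libraries and 3 had both below, against 15.3% and 14.4% of all tested genes. The 3 were GATA3, SMAD9 (log2 -0.55, -1.13 to 0.03) and GATA2 (log2 -0.29, -0.66 to 0.08).

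The core pluripotency factors overlapped between the groups, with narrow intervals. POU5F1 had 34339 and 33686 normalised reads in E7+TGFb+2DG, against 31406 and 34142 in E7+2DG (log2 fold change 0.05, 95% interval -0.28 to 0.39). SOX2 had 5243 and 5272 normalised reads in E7+TGFb+2DG, against 4879 and 5281 in E7+2DG (log2 fold change 0.05, 95% interval -0.13 to 0.23), and NANOG, a direct target of SMAD2 and SMAD3 in human stem cells, had 3872 and 3793 normalised reads in E7+TGFb+2DG, against 3699.7 and 3954 in E7+2DG (log2 fold change 0.0029, 95% interval -0.23 to 0.23). In each of these 3 genes the values of 1 group crossed those of the other. All 22 tested members of the pluripotency list lay between -0.16 and 0.16, with a median of 0.0023, and for 22 of them the 95% interval stayed between -1 and 1. The 15 tested neural lineage genes lay between -0.26 and 0.17, with a median of -0.01. PAX6, the neuroectoderm regulator, had few reads in both groups, 7.84 and 4.35 in E7+TGFb+2DG and 2.85 and 14.1 in E7+2DG.

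Genes by which cells answer 2DG were high in both groups with 2DG, with or without TGFb. TXNIP, an alpha-arrestin that lowers glucose uptake, had 1802 and 1804 normalised reads in E7+TGFb+2DG, against 1610.2 and 1720.3 in E7+2DG, beside 44.1 and 42.2 in E7+TGFb and 51.7 and 83.2 in E7. DDIT3, the stress factor CHOP, had 409.8 and 417 normalised reads in E7+TGFb+2DG, against 321 and 428 in E7+2DG, beside means of 26.4 in E7+TGFb and 38.6 in E7. For TXNIP the groups did not overlap and for DDIT3 they did. The difference with TGFb under 2DG was 0.12 (-0.41 to 0.64) for TXNIP and 0.16 (-0.76 to 1.07) for DDIT3 on the log2 scale. DDIT4, an mTORC1 inhibitor, had 1052 and 1111 normalised reads in E7+TGFb+2DG, against 934 and 1020.0 in E7+2DG, and ATF5, a bZIP factor, had 2380.1 and 2164 normalised reads in E7+TGFb+2DG, against 1881 and 2289 in E7+2DG. DDIT4 did not overlap and ATF5 did, and neither was called. HSPA5, the main ER chaperone, had 26046 and 27085 normalised reads in E7+TGFb+2DG, against 24248 and 25888 in E7+2DG, without overlap and with a log2 fold change of 0.08 (95% interval -0.11 to 0.28). Across the 29 tested genes of the ATF4 amino acid response, 25 had a positive log2 fold change, with a median of 0.05 and a highest value of 0.16, where 8405 of all 16714 genes were positive. Without E7+2DG replicate 1, 9 of these 29 were positive. Of the 23 tested genes of the ER unfolded protein response, 19 were positive, with a median of 0.04, and 9 of them had both E7+TGFb+2DG libraries above both E7+2DG libraries and 1 had both below, against 15.3% and 14.4% of all genes. Over 3 other scalings and with each of the 4 libraries left out, the ER median ranged from 0.03 to 0.08 and the ATF4 median from -0.02 to 0.11. Genes of 1 list vary together within a library, so these counts over members are not counts of independent observations, and 0 members of either list were called.

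**Figure D4:**
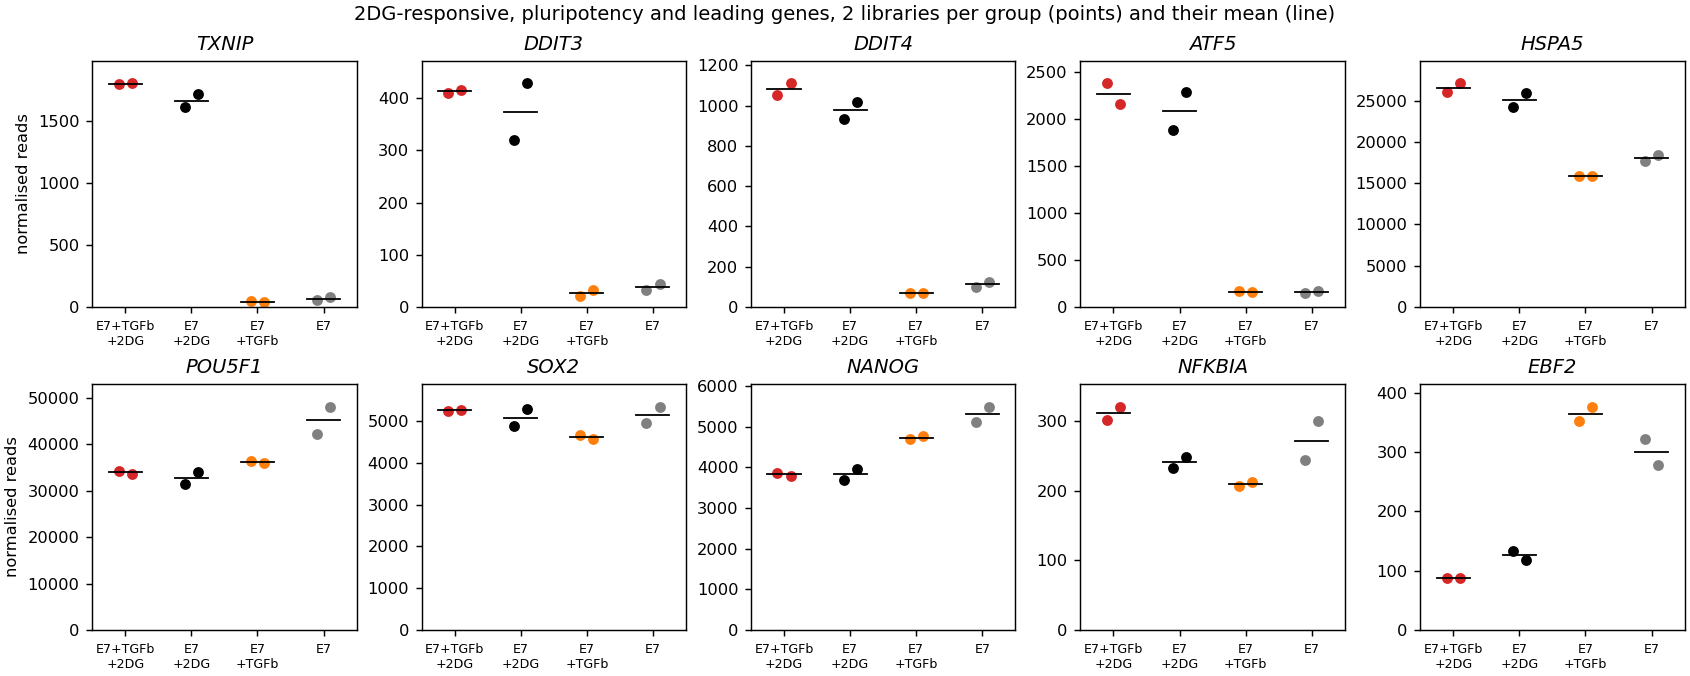
Normalised reads (vertical axes, each from 0) of 10 genes in the 2 libraries of E7+TGFb+2DG, E7+2DG, E7+TGFb and E7, with the group mean as a line. TXNIP, DDIT3, DDIT4 and ATF5 are high in both groups with 2DG, and the levels of POU5F1, SOX2 and NANOG overlap between E7+TGFb+2DG and E7+2DG.

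Metabolic and cell division lists also held 0 called genes. The median log2 fold change was 0.02 over 20 glycolysis genes, 0.05 over 43 nuclear genes of oxidative phosphorylation, 0.03 over 20 S phase genes and 0.01 over 22 genes of G2 and mitosis. It was -0.02 over 22 cholesterol synthesis genes, 0.04 over 18 ribosome biogenesis genes, 0.06 over 7 metallothioneins and -0.02 over 28 genes of matrix, adhesion and cytoskeleton. The metallothionein median was -0.10 without E7+2DG replicate 1, where 1 of 7 was positive, and 0.24 without E7+2DG replicate 2, where 7 were. The cholesterol synthesis median was 0.03 without E7+2DG replicate 2. Of the oxidative phosphorylation genes 36 were positive, 18 without E7+2DG replicate 1 and 21 without E7+TGFb+2DG replicate 2, and their summed level of 88341 and 94247 normalised reads in E7+TGFb+2DG and 83765 and 91102 in E7+2DG overlapped, and their median took the value -0.01 at the lowest and 0.11 at the highest over those alternatives. MKI67, the proliferation marker, had 5451 and 5091 normalised reads in E7+TGFb+2DG, against 6176 and 4817 in E7+2DG, with both TGFb libraries inside the range of the others. CAV1, the main protein of caveolae, had 330.4 and 335 normalised reads in E7+TGFb+2DG, against 408 and 396 in E7+2DG, without overlap (log2 -0.27, -0.49 to -0.05, limma unadjusted p = 0.019).

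All 13 protein-coding genes of the mitochondrial genome had a negative log2 fold change with TGFb, between -0.20 and -0.02, with a median of -0.05. Over the 3 other scalings and with each of the 4 libraries left out, the median ranged from -0.12 to -0.03. For 8 of them both E7+TGFb+2DG libraries lay below both E7+2DG libraries, against 14.4% of all tested genes. All 13 stayed negative under the other scalings, and 3 were positive without E7+TGFb+2DG replicate 1 and 4 without E7+2DG replicate 2. They are read from shared transcripts of 1 small genome, and 0 were called. MT-TL1, a mitochondrial transfer RNA gene that is not in the list, had the smallest unadjusted p of all genes, with 23.5 and 26.1 normalised reads in E7+TGFb+2DG, against 47.4 and 55.5 in E7+2DG (log2 -1.02, limma unadjusted p = 2.8e-04), and was singled out after its values were seen. RNA was selected with oligo(dT) beads. The list of replication histone genes, whose transcripts mostly but not always lack poly(A) tails, had a median of -0.12 over 9 tested members. Of these, 0 were higher and 1 lower without overlap, against 15.3% and 14.4% of all tested genes. The histone median was -0.36 without E7+2DG replicate 1 and 0.09 without E7+TGFb+2DG replicate 2.

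**Figure D5:**
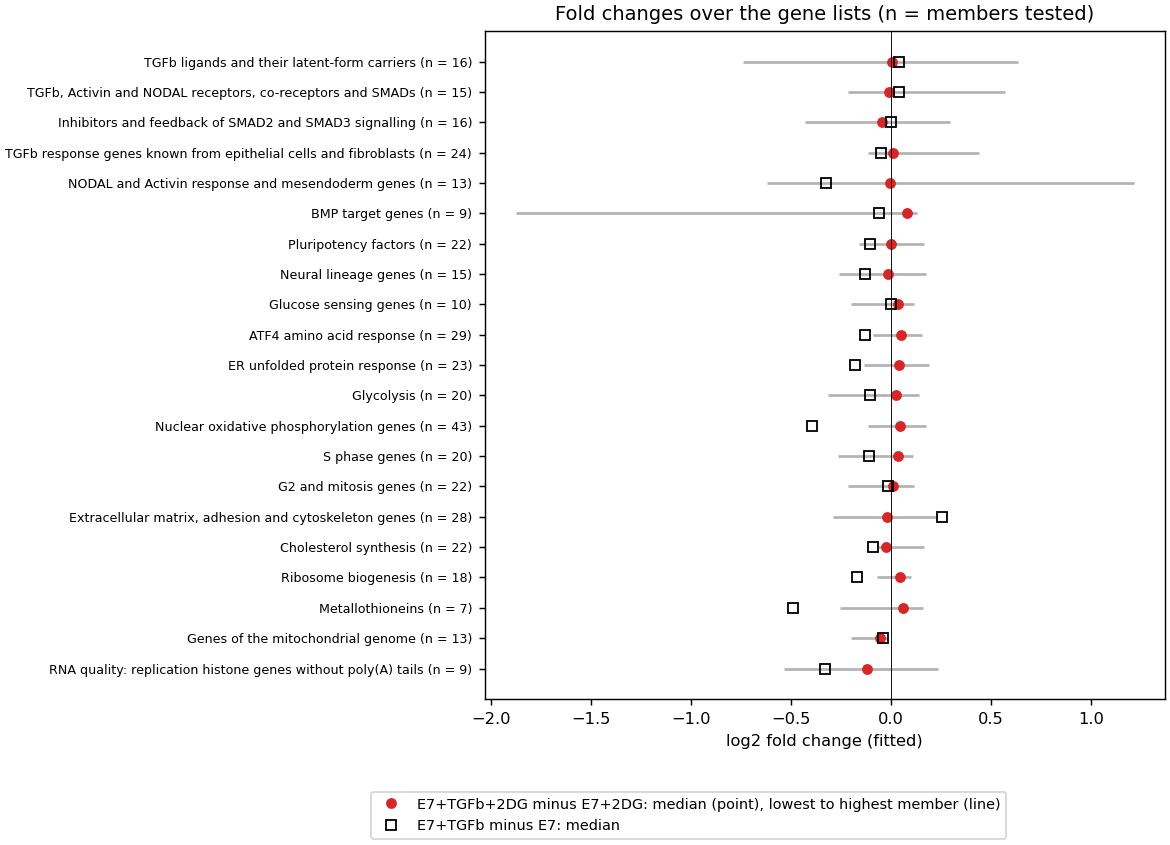
Median log2 fold change of each of the 21 gene lists shown, which leave out the markers of other cells, for E7+TGFb+2DG minus E7+2DG (red points, with a line from the lowest to the highest member) and for E7+TGFb minus E7 (open squares). The red medians lie between -0.12 and 0.08, and those without 2DG between -0.49 and 0.25.

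The genes ranked first by unadjusted p, among those with at least 100 reads in the higher group and no overlap, had small fold changes. NFKBIA, the inhibitor of NF-kappaB, had 302 and 321 normalised reads in E7+TGFb+2DG, against 232 and 249 in E7+2DG (log2 0.37, 0.06 to 0.68). STIM1, the calcium sensor of the ER, had 155 and 169 normalised reads in E7+TGFb+2DG, against 119 and 127 in E7+2DG (log2 0.39, 0.09 to 0.70). TMCC2 had 0.36, the helicase gene DHX32 0.30 and the zinc finger gene ZNF689 0.33. The 12 genes named on the higher side spanned 0.28 (PIGL) to 0.47 (the pseudogene RPSAP15, whose reads may come from its parent gene). EBF2, a transcription factor, had 88.2 and 88.1 normalised reads in E7+TGFb+2DG, against 133 and 119 in E7+2DG (log2 -0.50, -0.87 to -0.14). SCARA3, a scavenger receptor gene, had 235 and 200.2 normalised reads in E7+TGFb+2DG, against 268 and 286 in E7+2DG (log2 -0.35, -0.61 to -0.09). The 12 on the lower side spanned -0.85 (SGK494) to -0.26 (ELK1, a target of ERK signalling). All 24 had an adjusted p that rounds to 1, and in a table of this size unadjusted p-values of 0.0061 for SGK494 and 0.011 for TMCC2 are no calls. EBF2 and SCARA3 lay lower with TGFb, and in the same fit they rose with Activin A under 2DG by 3.44 and 2.63 on the log2 scale (limma adjusted p = 3.4e-08 and 2.7e-08). Expression of EBF2 was 352 and 377 in E7+TGFb and 323 and 278 in E7 without 2DG.

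Whether the response to TGFb differed between cells with and without 2DG was tested as an interaction, the log2 response under 2DG less that in E7. Calls numbered 0 of 16714 genes (0%). The smallest limma adjusted p was 0.412, and 2023 genes lay below 0.05 before adjustment. edgeR and DESeq2 also called 0, and 1983 and 1700 genes lay below 0.05 before adjustment. Without the 4 Activin A libraries limma called 1064 genes with a positive term (6.37%) and 1393 with a negative one (8.33%). The responses were wider without 2DG. There the middle 50% of genes had log2 responses to TGFb between -0.24 and 0.24, against -0.09 and 0.08 under 2DG. Brakes of the pathway had log2 responses without 2DG of 0.03 (PMEPA1), -0.0026 (SMAD7), -0.01 (SKIL) and 0.49 (LDLRAD4). Over the 16 tested inhibitors the median without 2DG was 0.0021.

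HSPG2, the matrix proteoglycan perlecan, and IGSF9B, an adhesion molecule, were among the 6 genes named for the most negative terms. These 6 were picked from genes called without the Activin A libraries. HSPG2 had 901 and 748 normalised reads in E7+TGFb+2DG, against 1220.2 and 828 in E7+2DG, beside 961 and 966 in E7+TGFb and 399 and 202 in E7. IGSF9B had 301 and 276 normalised reads in E7+TGFb+2DG, against 361 and 233 in E7+2DG, beside 363 and 314 in E7+TGFb and 93.8 and 61.9 in E7. The interaction terms of HSPG2 and IGSF9B were -2.05 and -2.14 (limma adjusted p = 0.412 each, and 0.0033 and 0.0034 without the Activin A libraries). Since calls in that second fit were the rule of choice, its small values add no support. In both genes the E7 libraries were low and the other 6 libraries were high. Of the 43 nuclear oxidative phosphorylation genes, 26 had a positive term called without the Activin A libraries and 0 a negative one, where 6.37% and 8.33% of all genes were called in that fit. Their median response to TGFb was 0.05 under 2DG and -0.39 without it. Of 28 genes of matrix, adhesion and cytoskeleton, 2 had a positive and 11 a negative term called in that fit, with medians of -0.02 under 2DG and 0.25 without, against the same 6.37% and 8.33% of all genes. Of the 23 ER unfolded protein response genes 10 had a positive term called and 0 a negative one, again against 6.37% and 8.33%.

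Transcript length and single libraries moved with these terms. Across 16352 genes the log2 response to TGFb followed exon length with Spearman's rho = 0.42 without 2DG and -0.12 under 2DG, and the interaction with -0.38, where genes are not independent replicates. Reads of E7 replicate 2 differed from those of the E7+TGFb libraries by 33.4 and 36.0 times the counting variance, those of E7 replicate 1 by 11.6 and 12.4 times, and the E7 replicates from each other by 9.53 times. Without the Activin A libraries, the 2457 interaction calls became 4772 with E7 replicate 1 also left out and 1241 with E7 replicate 2 left out. They became 824 and 821 with E7+TGFb replicate 1 or 2 left out, 1331 and 667 with E7+TGFb+2DG replicate 1 or 2 left out, and 839 and 2816 with E7+2DG replicate 1 or 2 left out. With the Activin A libraries otherwise kept, leaving out replicate 1 or 2 of E7+Activin A alone gave 1235 and 1232 calls. The part of length and of the E7 libraries in the interaction was not tested.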

How the data were processed

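RNA of H1 cells was measured by poly(A) RNA-seq in 8 groups of 2 libraries. Trimming with Trimmomatic 0.36, STAR, counting with featureCounts 1.5.3, the build hg38 and DESeq2 1.26.0 are listed in the submitters' processing notes. The strand setting is not given in the sources used here, so reads of antisense genes are uncertain, as are those of pseudogenes and near-identical genes such as the metallothioneins. The deposited table holds a normalised signal per gene whose values are gene counts divided by 1 factor per library, as the values themselves show: dividing each column by its smallest value gave whole reads for 100% of values (tolerance 1e-06), from 14600479 to 17630329 per library.

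Genes that reached 10 in 2 or more libraries were fitted with limma 3.58.1 (trend) in R 4.3.3 on log2(value + 1), with 8 group means and all 16 libraries sharing 1 estimate of the spread. p-values were two-sided and Benjamini-Hochberg adjusted over all tested genes, with calls at an adjusted p under 0.05, and intervals are 95% from the moderated fit. edgeR 4.0.16 and DESeq2 1.42.0 were run on the recovered reads as alternatives. Exon lengths came from GENCODE 29.

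For the comparison under 2DG, the 12 genes per direction with the smallest unadjusted p were named. They had no overlap between the groups and at least 100 reads in the higher group. For the interaction, 6 per direction were named, with the largest terms among genes called without the Activin A libraries. Their highest group mean in the contrast was at least 100 reads, and overlap was not considered. Also named were up to 4 per list with the largest change, and a fixed set of pathway, pluripotency and stress genes. Genes and lists were chosen with earlier results of these data known.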

Additional observations from a re-analysis of the deposited data

Results flagged for a closer look

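By a test of the difference itself, 2457 genes were called for a response to TGFb that differed between cells with and without 2DG. That was in the fit without the 4 Activin A libraries, and with all 16 libraries limma, edgeR and DESeq2 each called 0. The fit without the Activin A libraries pools 1 spread over the groups kept. The E7 replicates differed by 9.53 times the counting variance, against 1.55 to 5.03 times in the other groups kept. The p-values of that fit may therefore be too small for a contrast that includes E7. The 6 genes named with positive terms, where the log2 response under 2DG lay above that without it, were AC005261.2 with 1.38, the homeobox gene HHEX with 1.03, the pseudogene HMGB1P10 with 1.00, the Mediator subunit gene MED30 with 0.99, AL136370.1 with 0.97 and the long noncoding RNA DLEU2 with 0.94. The 6 with negative terms were the antisense gene SEMA6A-AS1 with -2.33, IGSF9B with -2.14, PWAR5 with -2.12, HSPG2 with -2.05, the olfactory receptor pseudogene OR7E12P with -1.96 and AL392023.2 with -1.94. These 12 were picked for the largest terms among genes that limma called without the Activin A libraries. Their calls in that fit therefore follow from the choice, and none was called with those libraries. Replicates differed widely in some, as in PWAR5 with 1509 and 575 normalised reads in E7+2DG and 371 and 192 in E7. With all 16 libraries the 95% intervals of PWAR5 (-4.62 to 0.37), OR7E12P (-3.96 to 0.05) and AL136370.1 (-0.25 to 2.20) included 0. Those of the other named genes did not.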

How the results depend on the processing

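The TGFb comparison under 2DG gave 0 calls in all 32 alternatives: other scalings, pseudocounts of 0.5 and 8, filters, library weights, edgeR, DESeq2, fewer libraries and each of the 16 libraries left out (0 to 0). The smallest adjusted p over them was 0.236, without E7+TGFb+2DG replicate 1. The 32 included a cut at an absolute log2 of 1, which could only remove calls, and an unplanned fit without the E7 and E7+TGFb libraries. With the replicate number as a block there were again 0 calls, 256 genes lay below 0.05 before adjustment, and the interaction had 0 calls. Same-numbered libraries of the 2 groups deviated together with a correlation of 0.066. That value rests on a single replicate difference per group, so it cannot show whether the libraries were paired. The interaction called 0 genes in the fit as reported, 1508 with library weights per group, 2457 without the 4 Activin A libraries and 1525 with the 8 libraries of the contrast only. Leaving out 1 library gave 0 to 1235. Alternatives chosen after seeing the data gave 2327 without the Activin A libraries and with the block, and 667 to 4772 without them and without 1 more library. The cause was not tested. Of 4680 values of named genes under alternatives, 51 changed sign in genes that were not called. The reported fits called no gene, so this count tells nothing about called genes. Intervals were wide for genes with few reads.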
